A study of Mus musculus with 12 samples.

Results

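Transcripts of the hypothalamic neuropeptides were followed across tumors of mice that overexpress MYCN. The set held 10 named genes, taken as a list of peptides made by hypothalamic neurons: Avp, Oxt, Hcrt, Pmch, Agrp, Npy, Trh, Crh, Ghrh and Gal. All probe sets that the platform annotation gives to these symbols were used, which came to 9 probe sets for 9 genes, 1 each, of 45037 probe sets and 18193 genes tested. No probe set was annotated to Agrp in the table used, and Agrp was not analysed here. RNA came from 3 pituitary tumors, numbered 6, 7 and 8, and from 9 pancreatic tumors, numbered 1 to 5 and 9 to 12, with 1 oligonucleotide array per tumor. The labels of the 3 head tumors say brain, and the paper places such tumors at the site of the pituitary gland. All 12 tumors arose in untreated LSL-MYCN;hGFAP-Cre mice of a mixed strain background. These mice carry a MYCN transgene and a luciferase reading frame behind a floxed polyA stop, and Cre recombinase under the human GFAP promoter removes that stop. MYCN is thereby switched on in cells in which this promoter was active and in their progeny. Some mice of the colony bore tumors at both sites, so that arrays of both groups may share a mouse, and the tests treat tumors as independent.

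Hypothalamic neuropeptides are cut from larger precursors, stored in dense-core granules and released from axon terminals. The magnocellular peptides vasopressin and oxytocin reach the blood in the posterior lobe of the pituitary, while releasing hormones travel through the portal vessels to the hormone cells of the anterior lobe. Other members, such as neuropeptide Y, melanin-concentrating hormone and orexin, act mainly within the brain on feeding and arousal, and neuropeptide Y and galanin are also made by sympathetic neurons and by some endocrine cells. Cells of the anterior pituitary carry the receptors of the releasing hormones, while the hormones themselves come from hypothalamic neurons.

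Values are log2 signals, in which a step of 1 is a 2-fold difference. The median probe set of an array, which stands for background here, lay between 5.53 and 5.61 in the pituitary tumors and between 5.45 and 5.69 in the pancreatic tumors. Signals below background bear little on the amount of transcript, so that a difference against a group below it is one of signals and not a fold change of RNA. Of 14 measured anterior pituitary markers, 8 were higher in the pituitary tumors and 1, Rbp4, was lower. Growth hormone (Gh) had signals of 14.65, 14.80 and 14.87 in pituitary tumors 6, 7 and 8, against 5.64 to 6.27 in the pancreatic tumors. Of 9 measured genes of the endocrine pancreas, 6 were lower in the pituitary tumors, among them Gcg with a difference of -6.53 (limma adjusted p = 0.00163), and of 9 acinar genes 1, Cela1, was lower. Pituitary tumors 6 and 8 also had high signals of brain markers. Over the 3 pituitary tumors together, 3 of 15 neuronal, 6 of 12 astrocyte and 2 of 9 oligodendrocyte genes were called higher and 0 lower, while 6.11% of all genes were called. Of the neuronal genes called, Slc17a6 and Snhg11 were high in tumor 7 too (8.53 and 8.16), and Gad1 was not (3.05). All 15 neuronal markers lay above the array median in tumors 6 and 8 and 11 did so in tumor 7, against 6 to 11 in the pancreatic tumors. Of 12 markers of astrocytes, pituicytes and tanycytes, 12, 8 and 12 were above the median in pituitary tumors 6, 7 and 8, against 5 to 10 in the pancreatic tumors, and of 9 oligodendrocyte markers 9, 4 and 7, against 3 to 4. Among the pancreatic tumors, tumor 2 stood apart, with the lowest mean over 11 genes of peptide processing (8.93, against 11.36 to 12.57 in the other 8), and tumors 3 and 4 held the most acinar transcripts.

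None of the 9 neuropeptides passed the test between the tumor sites after adjustment over all probe sets, in either direction. For the comparison, 4.63% of all probe sets were called, 3.45% higher and 1.18% lower in the pituitary tumors (limma, Benjamini-Hochberg adjusted p under 0.05). Crh and Npy reached an unadjusted p under 0.05, as did 19.4% of all probe sets. In none of the 9 genes were the groups free of overlap, against 7.88% of all probe sets (4.02% with the pituitary tumors higher and 3.86% with them lower). At these shares, the lack of calls and of groups free of overlap among 9 genes says little about the members. Within the groups, the members had different patterns. Crh, Pmch and Avp were high in 1 pituitary tumor, Npy and Gal varied widely among the pancreatic tumors, Oxt was above background in all tumors at an even level, and Trh, Hcrt and Ghrh stayed near or below the array median. In bulk tissue, fewer cells that make a peptide and less of its RNA per cell cannot be told apart, which holds for every difference given here.

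**Figure D1:**
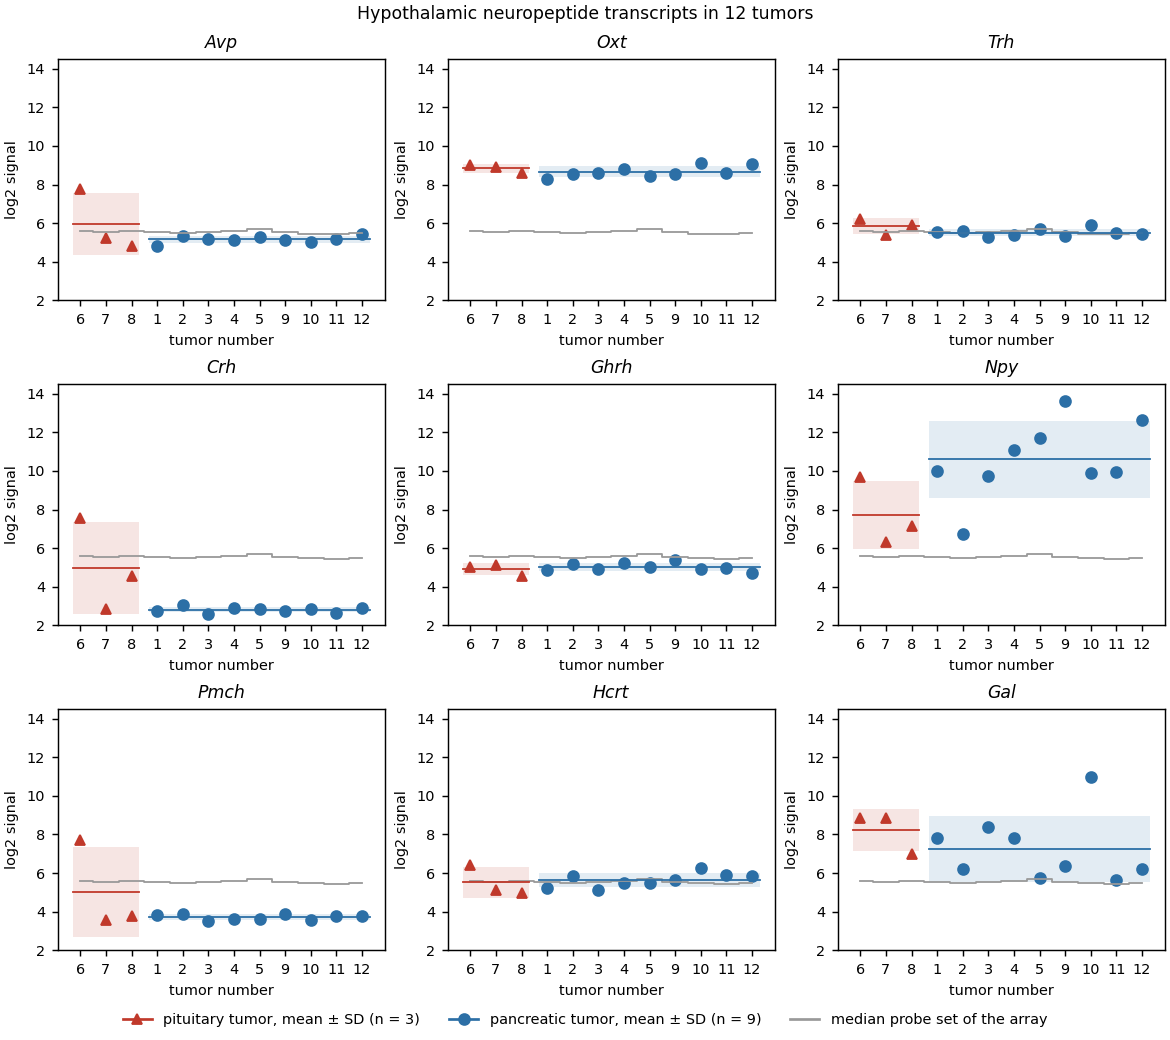
Log2 signal of the 9 neuropeptide genes (y axis) in each tumor (x axis), with pituitary tumors as triangles and pancreatic tumors as circles, lines and bands for the group mean ± SD (n = 3 and n = 9), and a grey line for the median probe set of each array. Avp, Crh and Pmch are raised in pituitary tumor 6, Npy spans 6.71 to 13.62 and Gal 5.66 to 10.97 among the pancreatic tumors, and Oxt lies between 8.32 and 9.11 in all 12.

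The magnocellular hormones had different profiles across the tumors, although their genes are neighbours on chromosome 2, with 3565 bases and no annotated gene between them (GRCm38.p6, Oxt at chr2:130574519-130577054 and Avp at chr2:130580620-130582588). Avp encodes vasopressin, the antidiuretic hormone, together with its carrier neurophysin. Its signal was 7.79, 5.25 and 4.84 in pituitary tumors 6, 7 and 8, and the pancreatic tumors had 4.84 at the lowest, 5.16 at the median and 5.46 at the highest. Only tumor 6 rose above its array median, by a gap of 2.33 to the next tumor of either site, while tumors 7 and 8 lay at the level of the pancreatic tumors. The group means were 5.96 ± 1.60 in the pituitary tumors (SD, n = 3) and 5.17 ± 0.18 in the pancreatic tumors (SD, n = 9), a difference of 0.79 (SE 0.45, 95% interval -0.19 to 1.78, limma adjusted p = 0.366). Without tumor 6 it was -0.12, so that its direction rested on that tumor.

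Oxt encodes oxytocin, the peptide of milk ejection and parturition. It gave 9.01, 8.93 and 8.58 in pituitary tumors 6, 7 and 8, against 8.32, 8.59 and 9.11 at the lowest, median and highest of the pancreatic tumors. The Oxt probe set thus lay well above the array median in every tumor and varied by under 1 log2 unit, as 5.28% of probe sets did. The difference of 0.17 (SE 0.18, 95% interval -0.23 to 0.56, limma adjusted p = 0.649) was no larger than the spread within the groups. This even level at both sites is that of a single probe set, with no second one against which it could be set.

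Among the releasing hormones, Crh showed the largest difference. Crh encodes corticotropin-releasing hormone, which drives corticotropes to secrete ACTH and is made by the paraventricular nucleus as well as by neurons of the cortex and amygdala (chr3:19693401-19695396). Its signals were 7.56, 2.84 and 4.57 in pituitary tumors 6, 7 and 8, against 2.61, 2.83 and 3.04 at the lowest, median and highest of the pancreatic tumors. Tumor 6 was the only tumor above its array median, tumor 8 lay above all pancreatic tumors but below background, and tumor 7 lay among them. The difference was 2.17 (SE 0.66, 95% interval 0.74 to 3.60), with an unadjusted limma p of 0.00628 that did not pass after adjustment (limma adjusted p = 0.0868). It became 3.25 without pituitary tumor 7 (limma adjusted p = 0.0027) and passed, and 0.89 without pituitary tumor 6 (limma adjusted p = 0.241), so that the call turned on which of the 3 pituitary tumors were counted.

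Trh, the thyrotropin-releasing hormone that acts on thyrotropes and lactotropes, stayed close to background. It had 6.23, 5.41 and 5.88 in pituitary tumors 6, 7 and 8, against 5.28 to 5.88 in the pancreatic tumors with a median of 5.47. Tumors 6 and 8 were above their array medians by less than 1 log2 unit, and the difference of 0.32 (SE 0.17, 95% interval -0.06 to 0.70) did not pass (limma adjusted p = 0.335). Ghrh, the releasing hormone of growth hormone from the arcuate nucleus, was at or below the array median in all 12 tumors, with 5.02, 5.15 and 4.54 in pituitary tumors 6, 7 and 8 and 4.70 to 5.39 in the pancreatic tumors. At that level its difference of -0.11 (95% interval -0.48 to 0.25, limma adjusted p = 0.745) cannot be read as an amount of transcript.

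Of the feeding and arousal peptides, Pmch followed the pattern of Avp and Crh. It encodes the precursor of melanin-concentrating hormone, a product of lateral hypothalamic neurons (chr10:88091072-88092374). Its signal was 7.72, 3.55 and 3.78 in pituitary tumors 6, 7 and 8, against 3.49, 3.76 and 3.90 at the lowest, median and highest of the pancreatic tumors. Tumor 6 exceeded every other tumor by 3.82 log2 units or more, and the other 11 tumors lay close together below background. The difference of 1.30 (SE 0.65, 95% interval -0.11 to 2.70, limma adjusted p = 0.298) became -0.05 without tumor 6.

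Hcrt encodes the orexins, which sustain wakefulness and come from neurons of the same lateral region. It was 6.42, 5.15 and 4.96 in pituitary tumors 6, 7 and 8, and 5.13 to 6.25 with a median of 5.66 in the pancreatic tumors. Tumor 6 was again the highest of all, but only 0.17 above the next, pancreatic tumor 10. The difference was -0.13 (SE 0.30, 95% interval -0.78 to 0.52, limma adjusted p = 0.841), and leaving out 1 tumor moved it over -0.59 to 0.14.

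Npy was the only member with a lower mean in the pituitary tumors at an unadjusted p under 0.05. It encodes neuropeptide Y, an appetite-stimulating peptide of the arcuate nucleus that also accompanies noradrenaline in sympathetic neurons (chr6:49822710-49829507). Signals were 9.70, 6.30 and 7.13 in pituitary tumors 6, 7 and 8, against 6.71, 9.98 and 13.62 at the lowest, median and highest of the pancreatic tumors. All 12 tumors were above background, and 8 of the 9 pancreatic tumors exceeded all pituitary tumors, with pancreatic tumor 2 as the exception. The means were 7.71 ± 1.77 in the pituitary tumors (SD, n = 3) and 10.59 ± 2.00 in the pancreatic tumors (SD, n = 9). The difference of -2.88 (SE 1.19, 95% interval -5.47 to -0.29, unadjusted p = 0.0322) did not pass after adjustment (limma adjusted p = 0.205), nor without any 1 tumor, where it ran over -3.88 to -2.18 with limma adjusted p between 0.0582 and 0.529. The lowest of these p-values came without pancreatic tumor 2.

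Gal encodes galanin, a peptide of hypothalamic neurons that is also made by lactotropes of the rodent pituitary (chr19:3409915-3414544). It had 8.87, 8.83 and 6.97 in pituitary tumors 6, 7 and 8, against 5.66, 6.39 and 10.97 at the lowest, median and highest of the pancreatic tumors. Pancreatic tumor 10 had the highest level of all, and the groups overlapped over most of their range. The difference of 0.98 (SE 0.98, 95% interval -1.15 to 3.11, limma adjusted p = 0.619) was smaller than the spread within either group. It was 1.61 without pituitary tumor 8, with a range of 0.66 to 1.61 over single tumors left out.

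The sequences before the start sites of Avp and Pmch, high in pituitary tumor 6 alone, and of Npy and Gal, the most variable among the pancreatic tumors, are shown for comparison. Each is the 250 bases upstream of the RefSeq start on GRCm38.p6, at chr2:130582589-130582838 on the minus strand, chr10:88090822-88091071 on the plus strand, chr6:49822460-49822709 on the plus strand and chr19:3414545-3414794 on the minus strand. Capitals mark matches on either strand to an E-box (CACGTG), to the core of the cAMP response element (TGACG) or to a TATA box (TATAAA).
Avp: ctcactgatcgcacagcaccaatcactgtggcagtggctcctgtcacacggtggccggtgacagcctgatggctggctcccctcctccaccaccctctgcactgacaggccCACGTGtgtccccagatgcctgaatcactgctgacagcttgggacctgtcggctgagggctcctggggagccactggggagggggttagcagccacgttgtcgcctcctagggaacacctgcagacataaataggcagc
Pmch: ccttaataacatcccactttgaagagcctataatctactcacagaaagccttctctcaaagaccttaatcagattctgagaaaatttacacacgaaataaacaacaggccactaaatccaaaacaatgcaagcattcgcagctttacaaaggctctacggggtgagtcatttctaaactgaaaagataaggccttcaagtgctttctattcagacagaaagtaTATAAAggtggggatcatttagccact
Npy: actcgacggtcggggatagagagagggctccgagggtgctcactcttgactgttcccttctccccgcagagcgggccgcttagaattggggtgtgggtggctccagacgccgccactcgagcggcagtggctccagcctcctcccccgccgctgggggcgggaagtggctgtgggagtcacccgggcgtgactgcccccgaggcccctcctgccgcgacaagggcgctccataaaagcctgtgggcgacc
Gal: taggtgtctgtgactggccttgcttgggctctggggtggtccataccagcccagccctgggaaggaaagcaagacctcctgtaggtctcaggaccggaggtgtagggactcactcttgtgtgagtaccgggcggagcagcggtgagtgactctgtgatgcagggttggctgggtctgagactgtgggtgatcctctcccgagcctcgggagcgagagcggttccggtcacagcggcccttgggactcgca
The E-box of Avp begins 139 bases before the start, and CACGTG occurs in 6.02% of 32851 RefSeq promoter windows of the same length. Among the 9 windows available, of 8 members, Avp was the only one with it. No window was available for Crh, which was not searched. The TATA box of Pmch begins 27 bases before the start, and TATAAA was also found before Hcrt and in 1 of the Ghrh windows, against 12.4% of all windows. TGACG lay before Trh and in both Ghrh windows, against 17.8% of all. None of these letters is in the windows of Npy and Gal shown. A match is given as a description of the sequence and not as a bound site.

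Pituitary tumor 6 was the tumor in which the neuropeptides were most widely found. Of the 9 genes, 8 lay above the array median there, 3 in tumor 7 and 4 in tumor 8, against 3 to 5 in the pancreatic tumors. Avp, Crh and Pmch each exceeded all other tumors by at least 2 log2 units in it, which 98 probe sets (0.218% of all tested) did. This gap was chosen after the values had been seen, and it is given without a test. The same count was 37 and 106 probe sets for pituitary tumors 7 and 8, and as high as 840 for pancreatic tumor 2.

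Other list genes with such a gap in tumor 6 came from several roles. Vip, vasoactive intestinal peptide, had 8.93, 3.63 and 5.08 in pituitary tumors 6, 7 and 8, against 3.25 to 4.15 in the pancreatic tumors. The neuropeptide Y receptors Npy1r (6.39 in tumor 6, 4.18 or less elsewhere) and Npy2r (5.34, 3.26 or less elsewhere) did the same, Npy2r without reaching background. A second probe set of Npy1r showed no higher mean, at 4.11 in the pituitary tumors and 4.27 in the pancreatic tumors. The gap was also found in Fezf2, a zinc finger factor of forebrain development (6.87, with 4.28 or less elsewhere), Camk2a, a kinase of forebrain excitatory neurons (12.18, 6.00 and 9.37 in pituitary tumors 6, 7 and 8), and Olig2, a factor of oligodendrocyte precursors (6.49, 2.80 and 4.33). Between the sites, this Camk2a probe set differed by 3.25 (limma adjusted p = 0.0551). Its other probe sets differed by 0.08 to 1.85, and none was called.

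Brain tissue markers were high together with Avp, Crh and Pmch in tumor 6, and high without Avp and Pmch in tumor 8. Gad1, the GABA-synthesizing enzyme, was 11.32, 3.05 and 12.52 in pituitary tumors 6, 7 and 8. Slc1a3, an astrocyte glutamate transporter, was 11.80, 5.07 and 12.51, and the myelin gene Mobp 12.33, 3.37 and 11.10. Other markers were lower in tumor 8 than in tumor 6, such as the astrocyte genes Slc1a2 (13.23, 9.26 and 11.63) and Gfap (8.02, 5.64 and 6.60) and the myelin gene Mog (6.63, 2.80 and 5.55). Tumor 6 had the higher signal of the 2 in 9 of 15 neuronal, 4 of 12 astrocyte and 8 of 9 oligodendrocyte markers. Avp and Pmch were 4.84 and 3.78 in tumor 8, at the level of the pancreatic tumors. The part of brain tissue in the peptide signals was not tested.

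Of 27 measured transcription factors of the hypothalamus, 5 had their highest signal of all 12 tumors in tumor 6 and 22 had it elsewhere. Beside Fezf2, these were Six6, the bHLH-PAS factor Arnt2 (9.93, 6.59 and 8.43 in pituitary tumors 6, 7 and 8, against 4.88 to 8.66 in the pancreatic tumors) and the forebrain factors Dlx1 (5.21, 3.34 and 3.68, against 3.27 to 3.85) and Dlx2 (4.20, 3.40 and 3.61, against 3.37 to 4.08), with Dlx1 and Dlx2 below background. Other factors of the list peaked in pituitary tumor 8. Nhlh2 was 3.68, 3.31 and 6.70 in pituitary tumors 6, 7 and 8, and Lhx1 was 4.94, 4.72 and 8.40. They exceeded the next tumor by 3.02 and 1.66. Arnt2, Dlx1, Dlx2, Nhlh2 and Lhx1 are named after their values were seen. Others that mark regions of the hypothalamus had no peak in a pituitary tumor. Nkx2-1, needed for the ventral hypothalamus, was 5.27, 4.88 and 5.00 in pituitary tumors 6, 7 and 8, below the array median in all 12 tumors. Otp, required for neuroendocrine neurons of the paraventricular nucleus, was 5.87, 5.94 and 5.75, against 5.80 to 6.33 in the pancreatic tumors. Rax, a factor of the early hypothalamus and of tanycytes, was 4.86, 4.55 and 4.83, below the median in the 3 pituitary tumors. Sim1, also a factor of the paraventricular nucleus, was below the array median in all 3 (4.01, 4.61 and 3.83), against 4.03 to 9.40 in the pancreatic tumors.

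**Figure D2:**
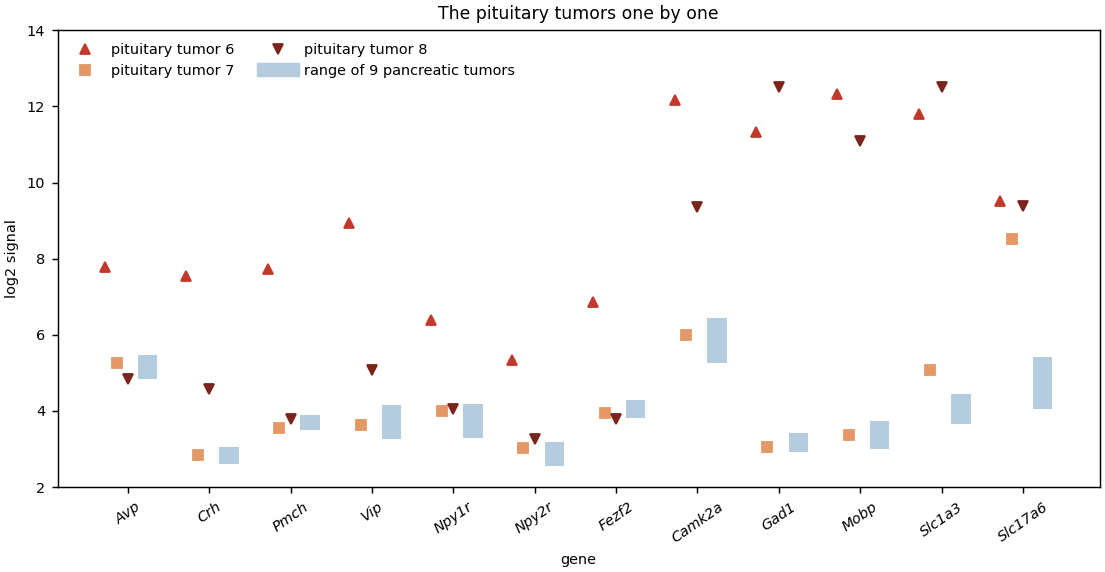
Log2 signal (y axis) of 12 genes (x axis) in pituitary tumors 6, 7 and 8, each with its own marker, beside a bar for the range of the 9 pancreatic tumors. Avp, Crh and Pmch are high in tumor 6 alone, whereas Gad1, Mobp and Slc1a3 are high in tumors 6 and 8, and Slc17a6 (9.52, 8.53 and 9.39) in all 3.

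The genes most like Avp, Crh and Pmch across the 12 tumors shared their high level in tumor 6, among 6876 genes that ranged over at least 2 log2 units and rose above background in some tumor. For Avp they were led by the myosin gene Myh7 (Pearson r = 0.985), with Icam5, an adhesion molecule of forebrain neurons, at 0.971 and Fezf2 at 0.965. For Pmch the mitochondrial carrier Slc25a31 (0.992) led, and its 5 nearest genes also held Icam5 (0.975) and the neurokinin B gene Tac2 (0.974). Icam5 was 9.87, 5.78 and 6.01 in pituitary tumors 6, 7 and 8, against 5.78 to 6.43 in the pancreatic tumors. The 5 nearest genes of Crh were others, and tumor 8 was intermediate in them as it was in Crh. Neurod6, a factor of cortical excitatory neurons, led (0.992) with 8.62, 2.77 and 5.44 in pituitary tumors 6, 7 and 8, and Olig2 (0.991) was also among its 5 nearest. These correlations rest on tumor 6, and 0 of the 5 nearest genes by rank correlation were among the 5 by Pearson's r for each of Avp, Crh and Pmch.

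Npy and Gal were the members that differed most among the pancreatic tumors. Npy ran over 6.91 log2 units, a 120-fold range that 0.639% of probe sets matched or exceeded among these 9 tumors. In full, Npy was 9.98, 6.71, 9.73, 11.10 and 11.69 in pancreatic tumors 1 to 5 and 13.62, 9.92, 9.93 and 12.66 in tumors 9 to 12. Tumors 9 and 12 were the highest and tumor 2 by far the lowest, and 4 tumors lay between 9.73 and 9.98. Gal ran over 5.31 units, matched or exceeded by 1.72% of probe sets, with a low end close to the array median in tumors 5 and 11. It was 7.80, 6.21, 8.39, 7.79 and 5.73 in pancreatic tumors 1 to 5 and 6.39, 10.97, 5.66 and 6.22 in tumors 9 to 12. The order of the tumors was different for the 2 peptides, since tumor 10, with the highest Gal, had an Npy of 9.92 near the median, and tumor 9, with the highest Npy, had a Gal of 6.39.

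Tumor 2 was low in other genes as well. Sst, the somatostatin gene, was 13.65 in it and 14.87 to 15.10 in the other pancreatic tumors, and Cpe, an exopeptidase that trims peptide hormones, was 10.94 in it and 13.55 to 14.32 in the others. Npy without tumor 2 still spanned 9.73 to 13.62. The mean over 9 acinar genes was highest in tumors 3 and 4 (11.24 and 10.43), whose Npy was 9.73 and 11.10, and lowest in tumor 9 (6.01), in which Npy was highest. The part of acinar tissue in the Npy signals was not tested.

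Across the 9 pancreatic tumors, Npy was most like Wnt10a (Pearson r = 0.919), Slc26a2 (0.918) and Oxtr (0.902) among 5247 genes. Oxtr, the oxytocin receptor, was 9.21, 5.34, 7.68, 10.09 and 9.56 in pancreatic tumors 1 to 5 and 10.75, 8.47, 9.47 and 9.72 in tumors 9 to 12, lowest in tumor 2 and highest in tumor 9 as Npy was. Over all 12 tumors the death receptor Tnfrsf21 (0.889) and the neuronal pentraxin Nptx2 (0.880) were nearest, and Oxtr (0.862) was the fifth. Gal was most like Ptger3, a receptor of prostaglandin E2, over the 9 pancreatic tumors (0.978) and over all 12 (0.901). Ptger3 was 5.47 in pancreatic tumor 10, at the array median, and 4.53 or less in the other 8, below it. Over all 12 tumors the peptidase Ecel1 was next (0.831), with 8.24 in pancreatic tumor 10. Over the pancreatic tumors, 2 of the 5 nearest genes of Npy and 1 of the 5 of Gal were also among the 5 nearest by rank correlation. These tumors share the site and differ in tissue content, so the likeness is given as a description over 9 points.

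**Figure D3:**
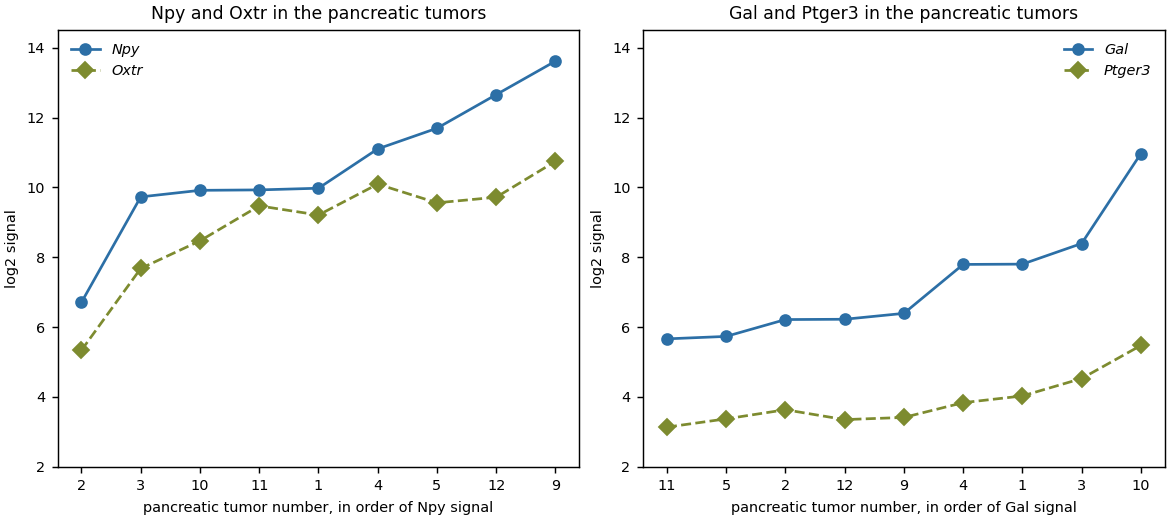
Log2 signal (y axis) in the 9 pancreatic tumors, ordered along the x axis by Npy with Oxtr (left panel) and by Gal with Ptger3 (right panel). Npy and Oxtr are both lowest in tumor 2 (6.71 and 5.34) and highest in tumor 9 (13.62 and 10.75), and Gal and Ptger3 are both highest in tumor 10 (10.97 and 5.47).

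Receptors of the neuropeptides were measured for 20 genes, of which 2 were higher in the pituitary tumors, 0 were lower and 18 did not pass, with a median difference of 0.02, while 6.11% of all genes were called (4.5% higher and 1.61% lower). Both that rose are receptors of releasing hormones on anterior pituitary cells. Ghrhr, the receptor of Ghrh on somatotropes, had 7.47, 10.00 and 8.75 in pituitary tumors 6, 7 and 8, against 6.26 to 6.76 in the pancreatic tumors. The groups did not overlap, and the difference was 2.31 (SE 0.37, 95% interval 1.51 to 3.11, limma adjusted p = 0.0038). Trhr, the receptor of Trh, had 7.00, 9.18 and 3.58, against 2.52 to 3.06 in the pancreatic tumors, so that tumor 8 was above these but below background. Its difference was 3.82 (SE 0.78, limma adjusted p = 0.0165), with an adjusted p of 0.0981 without pituitary tumor 6 (limma), and another probe set for Trhr did not follow it (0.09, limma adjusted p = 0.753). Both receptors were highest in tumor 7, the tumor with the fewest brain markers, in which Trh and Ghrh themselves were below the array median.

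The other receptors did not pass. Oxtr came nearest in the lower direction, with 5.87, 6.35 and 4.43 in pituitary tumors 6, 7 and 8 against 5.34 to 10.75 in the pancreatic tumors, a difference of -3.37 (SE 0.92, 95% interval -5.37 to -1.37, limma adjusted p = 0.0589). Its other probe set gave a smaller difference (-0.82, limma adjusted p = 0.114). The corticotropin-releasing hormone receptor Crhr1 was near background at both sites (5.79, 5.73 and 6.26, against 5.52 to 6.05). The vasopressin receptors Avpr1a and Avpr1b and the galanin receptors Galr1 and Galr2 were at or below the array median in all 12 tumors. Hcrtr1, an orexin receptor, stood above background in pancreatic tumor 3 only (6.34). It was 4.43 to 4.78 in the pituitary tumors and 5.03 or less in the other 8 pancreatic tumors.

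Crhbp, which binds corticotropin-releasing hormone and keeps it from its receptors, differed most among the genes of this pathway named here. It had 10.93, 9.62 and 8.12 in pituitary tumors 6, 7 and 8, against 3.21 to 4.13 in the pancreatic tumors. All 3 pituitary tumors were above background and all 9 pancreatic tumors below it, and the difference was 5.97 (SE 0.42, 95% interval 5.07 to 6.88, limma adjusted p = 5.79e-06). Crhbp was therefore present in tumor 7, in which Crh was 2.84.

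**Figure D4:**
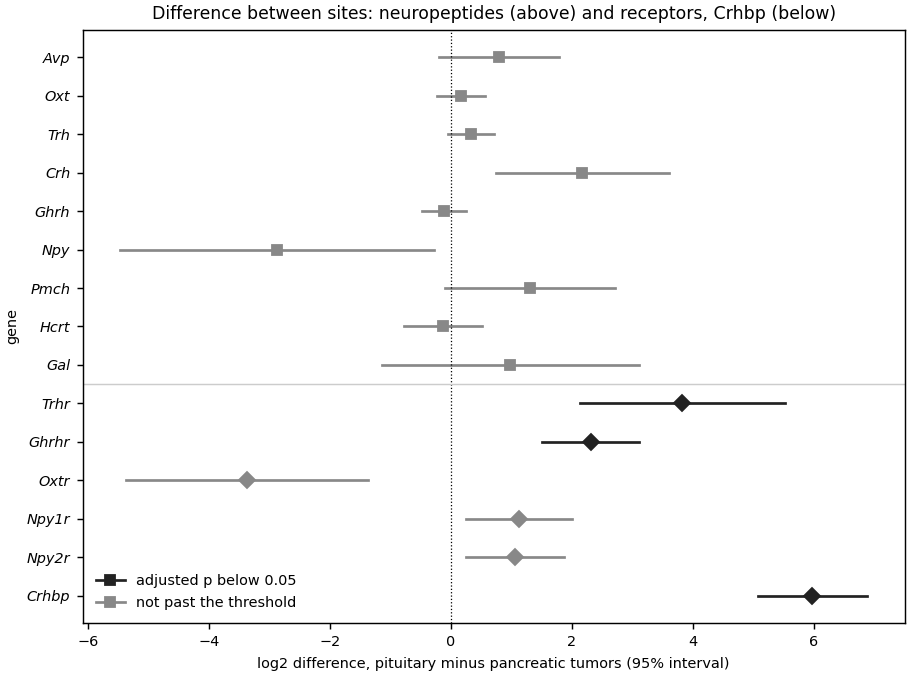
Difference in log2 signal (x axis, pituitary minus pancreatic tumors) with its 95% interval for the 9 neuropeptides (squares) and for 5 receptors and Crhbp (diamonds), in black where the limma adjusted p was under 0.05. Ghrhr (2.31), Trhr (3.82) and Crhbp (5.97) pass, and none of the 9 neuropeptides does.

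Other peptides of the hypothalamus, counted together with Crhbp, were higher in the pituitary tumors for 3 of 20 measured genes, lower for 1, and did not pass for 16. Their median difference was 0.02, and 4.5% of all genes were called higher and 1.61% lower. The members that rose beside Crhbp were Pomc, the ACTH precursor of corticotropes (10.49, 13.73 and 12.41 in pituitary tumors 6, 7 and 8 against 4.85 to 8.48, difference 4.84, limma adjusted p = 0.00213), and Penk, the enkephalin precursor (10.01, 8.03 and 11.19 against 5.10 to 7.45, difference 3.77, limma adjusted p = 0.00305). Both are also made outside the hypothalamus, Pomc in the anterior and intermediate lobes of the pituitary. Pdyn, the dynorphin precursor that magnocellular vasopressin neurons also make, fell by 5.34 (limma adjusted p = 0.00334). It was 5.95, 5.24 and 5.30 in the pituitary tumors against 8.12 to 12.66 in the pancreatic tumors, and among the pituitary tumors it was above the array median in tumor 6 only. Cartpt, Nts and Tac1, peptides shared by hypothalamus and endocrine cells, did not pass. They were above background in 8, 8 and 9 pancreatic tumors and in 3, 1 and 3 pituitary tumors.

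In the comparison of the sites, 1 of the 27 hypothalamic transcription factors was higher in the pituitary tumors, Six6, and 1 was lower, Isl1. Their median difference was -0.06, and over all genes 4.5% were called higher and 1.61% lower. Six6, a homeobox factor of the eye field, hypothalamus and pituitary, had 10.78, 10.22 and 6.95 in pituitary tumors 6, 7 and 8, against 3.33 to 3.98 in the pancreatic tumors (difference 5.62, limma adjusted p = 0.000137). Isl1, which is also a factor of islet cells, had 6.47, 9.38 and 5.71, against 8.76 to 12.95 (difference -4.51, limma adjusted p = 0.00978). It was not called without pituitary tumor 6 (limma adjusted p = 0.0723) or 8 (0.0749).

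Genes that process peptides were above background at both sites, 11 of 11 in each pituitary tumor and 10 to 11 in the pancreatic tumors. Of 11 measured genes of peptide processing and dense-core granules, 0 were called in either direction (0 also at an unadjusted p under 0.05), with a median difference of -0.46. Over all genes, 6.11% were called, so that 0 calls in a list this short say little. Pcsk1, the prohormone convertase of the regulated pathway, had 8.05, 9.38 and 7.69 in pituitary tumors 6, 7 and 8, against 5.32 to 10.21 in the pancreatic tumors, lowest in tumor 2. Pam, which amidates the ends of peptides such as vasopressin, oxytocin and neuropeptide Y, had 11.75, 11.91 and 10.38, against 8.36 to 13.04. Pam was above background in all 12 tumors and Pcsk1 in all but pancreatic tumor 2. Markers of sympathoadrenal cells, another source of Npy and Gal, were called for 0 of 10 genes in either direction (limma, with 2 at an unadjusted p under 0.05), against the same 6.11% of all genes. The tyrosine hydroxylase gene Th was 5.46, 5.03 and 6.88 in pituitary tumors 6, 7 and 8, against 5.56 to 12.57 in the pancreatic tumors, with the highest value in tumor 10, in which Gal was highest, and 6.26 in tumor 9, in which Npy was highest. The part of such cells in the Npy and Gal signals was not tested.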

How the data were processed

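RNA of 12 tumors was hybridized to Affymetrix mouse arrays. The deposited values are log2 signals, which the authors normalized between arrays with Partek Genomics Suite or with RMA. Both are named in the methods, while Partek, without a version, is the only processing tool listed with the samples. The signals were used without further normalization. After leaving out 64 controls, 45037 probe sets were tested for a difference between the sites, as pituitary minus pancreatic tumors, with the moderated linear model of limma (version 3.58.1, under R 4.3.3). Benjamini-Hochberg adjustment ran over all of them, at a threshold of 0.05. Tables and figures were made in Python 3.11.15.

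Symbols came from the platform annotation. Of several probe sets with 1 symbol, that with the highest average over the 2 group means stood for its gene. Of 180 entries on 11 lists beside the members, 24 were not measured by such a probe set. The genes named are all members, up to 4 called genes per list and direction, receptors, binding proteins and factors of the members, markers that a result turns on, and the 5 genes most like a variable member by Pearson's r over tumors. Promoter windows are from RefSeq, for 8 members. The members and lists were chosen with earlier results of these data known.

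On simulated data of the same size, the test recovered 23, 39, 48 and 48 of 50 probe sets changed by 1, 2, 4 and 6 log2 units, with 9 false calls over 45037 probe sets. The simulated shift was equal in all pituitary tumors, with the same spread at both sites. Members such as Crh (SD 2.39 in the pituitary and 0.13 in the pancreatic tumors) differ from that setting, so these counts do not give the recovery for them. No source says that tumors came from separate mice, so p-values measure the spread between these tumors, and the number of arrays limits the precision. The settings varied were the normalization (quantile, median centring), the variance model (array weights, trended and robust, or unmoderated), a filter on dim probe sets, a threshold of 1 on the log2 difference, averaging the probe sets of a gene, and rank correlation. Tumors were also left out singly and in 3 groups, namely pituitary tumors 6 and 8, pancreatic tumors 2, 3 and 4, and pancreatic tumors 10, 11 and 12. The arrays of pancreatic tumors 10, 11 and 12 had mean signals of 5.97 to 5.98, against 6.06 to 6.10 in the other tumors. The cause of this shift, and its part in the Npy and Gal signals, was not tested.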

Additional observations from a re-analysis of the deposited data

Results flagged for a closer look

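In 12 of 63 genes examined, 1 of the 9 pancreatic tumors lay far from the others. The genes examined were the members, some of their likest genes and a part of the named list genes. The gap of that tumor, as a share of the whole range, exceeded Dixon's 95% critical value for 9 samples. Chance alone exceeds that value in about 1 in 20 groups. None of the 9 neuropeptides was among the 12, and Gal came nearest at 0.485. Other genes named here were not examined, among them Wnt10a, Arnt2 and Dlx2. The ratio of Dlx2 was 0.512, also above that value, with 4.08 in tumor 12, below background. Tnfrsf21 and Ecel1 had been chosen for their likeness to Npy and Gal, so that their gaps repeat the pattern they were chosen for. Among the 54 members and list genes examined, 10 were so marked, 6 of them in tumor 2. Tumor 2 stood apart in 7 of the 12. It was low in Pomc (ratio 0.659, signal 4.85 against 7.24 to 8.48), Isl1 (0.641, 8.76 against 11.44 to 12.95), Cpe (0.770, 10.94 against 13.55 to 14.32), Pam (0.708, 8.36 against 11.68 to 13.04), Sst (0.840, 13.65 against 14.87 to 15.10) and Tnfrsf21 (0.679, 6.47 against 9.05 to 10.27), and high in the glutamate transporter Slc1a2 (0.711, 7.14 against 3.80 to 4.77). Tumor 5 was low in Avpr1a, all at or below background (0.503, 4.29 against 4.88 to 5.47), and high in prolactin, Prl (0.641, 8.22 against 4.36 to 5.74). Tumor 3 was high in Hcrtr1 (0.622, 6.34 against 4.24 to 5.03). Tumor 4 was high in gastrin-releasing peptide, Grp (0.806, 8.04 against 4.36 to 5.07). Tumor 10, the tumor with the highest Gal, was high in Ecel1 (0.767, 8.24 against 5.38 to 6.05).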

How the results depend on the processing

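None of the members was called lower in the pituitary tumors in any setting, and 1, Crh, was called higher in 2 of them, with array weights (1 member, difference 3.03, limma adjusted p = 0.0126) and without pituitary tumor 7 (1 member, 0 to 1 over all tumors left out). Signs turned for differences near 0 or resting on 1 tumor. Avp became -0.12 without pituitary tumor 6 (-0.12 to 1.35 over single tumors left out) and Pmch -0.053 (-0.053 to 2.03), with -0.17 for Pmch and -0.11 for Trh when pituitary tumors 6 and 8 were left out. Ghrh became 0.13 without both and 0.067 without tumor 8 (-0.24 to 0.067). Hcrt became 0.25 with array weights and 0.039 without pancreatic tumors 10, 11 and 12 (-0.59 to 0.14 over single tumors, turning without pituitary tumor 7 or 8). Npy and Gal kept their direction in every setting.

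Over all probe sets, 1552 were called higher and 533 lower in the pituitary tumors. The counts were 3179 and 1849 with array weights, 488 and 61 without pituitary tumors 6 and 8, 571 and 214 without pancreatic tumors 10, 11 and 12, and 967 higher with the unmoderated test. With single tumors left out they ran over 656 to 2000 and 172 to 886, as omission of pituitary tumor 6 gave 656 and 172, of pituitary tumor 8 760 and 180, and of pancreatic tumor 2 886 lower. With pituitary tumor 7 as the only pituitary tumor, the differences were 2.06 for Penk, -5.59 for Pdyn, -2.32 for Isl1 and -7.04 for Gcg. The spread in that fit came from the pancreatic tumors alone. Trhr (3.82, limma adjusted p = 0.1003) and Isl1 (-4.45, 0.0788) were not called without pancreatic tumors 10, 11 and 12. Nor was Trhr (3.81, 0.0599) called without pancreatic tumors 2, 3 and 4. The differences in these 2 settings were close to those over all tumors. The brain markers Gad1 (5.80, unmoderated adjusted p = 0.0752) and Mobp (5.61, 0.0693) were not called with the unmoderated test. Both also lost the call without pituitary tumor 6 or 8, and without any 1 of pancreatic tumors 3, 4, 9, 10, 11 and 12. List genes called higher ran over 16 to 40, with 40 without pituitary tumor 7, and lower over 8 to 14. The cause was not tested. With rank correlation in place of Pearson's r, 0 of 5 nearest genes were shared for Avp, Crh and Pmch, 3 for Npy and 2 for Gal over 12 tumors, and 2 for Npy and 1 for Gal over the pancreatic tumors. No paired analysis was possible, because the mouse of each tumor is not given and the tumor numbers, 1 to 12, do not identify it. With 3 pituitary tumors, a member high in 1 of them has a wide interval, and signals near the array median carry little information on amount.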
